A study of Mus musculus with 9 samples.

Results

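The genes described here are 9 genes of monocytes and interstitial macrophages, chosen by name: Ccr2, Ly6c2, Cd14, Cx3cr1, Nr4a3, Csf1r, Adgre1, Ms4a7 and Mrc1. These genes and the lists below were chosen with earlier results of these data known. All 9 were found among the 45706 genes of the deposited table, and all 9 were among the 13248 genes that had at least 1 TPM (a transcript abundance corrected for length and scaled to the same sum in each library) in at least 3 of the 9 libraries and were tested. The RNA was from lungs of BALB/c mice, females 4 to 6 weeks old, that carried 4T1 mouse mammary carcinoma cells injected into the right flank. One group received nanocapsules of an antibody against PD1 (nanocapsule lungs), one the antibody itself (anti-PD1 lungs) and one phosphate-buffered saline (PBS lungs). Treatment was on days 7 and 14 after engraftment and the lungs were taken on day 21, so tumour, strain, sex and age were shared by all 3 groups. A dose of 150 µg per mouse stands beside the nanocapsules in the labels, which do not say if it holds for the free antibody too. Each group had 3 lungs, numbered but not tied to named animals, so the p-values reflect only how far these samples differ, and there was no group without a tumour.

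Monocytes leave the bone marrow for the blood as classical cells, which carry the chemokine receptor CCR2 and the surface protein Ly6C, and some mature into patrolling cells, which lose Ly6C, gain the fractalkine receptor CX3CR1 and keep to the vessel wall. In the lung, monocytes also give rise to interstitial macrophages, which lie in the tissue around vessels and airways, whereas alveolar macrophages line the air spaces and largely renew themselves. The receptor CSF1R passes on survival and differentiation signals in the monocyte and macrophage lineage, while alveolar macrophages rely mainly on another factor, GM-CSF. Several of the 9 genes are shared with other cells: Cd14 with neutrophils, Cx3cr1 with natural killer cells, and Mrc1 and Adgre1 with alveolar macrophages.

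Promoter sequences were taken from RefSeq (GRCm38.p6), which held 6 of the 9 genes, Ccr2, Ly6c2, Cx3cr1, Nr4a3, Ms4a7 and Mrc1. Those shown are of Ccr2 and Ly6c2, the pair whose levels were most alike over the lungs, of Ly6c1, whose transcripts resemble those of Ly6c2, and of Mrc1, whose levels ran differently. Each is the 250 bases before the start that RefSeq annotates, 5′ to 3′ on the strand of the gene. GENCODE M21, which gives the gene positions below, places the start of Ccr2 and of Mrc1 farther upstream, so most of the Ccr2 window and the end of the Mrc1 window lie inside the gene by that annotation. The window of Ccr2 is chr9:124101933-124102182 on the plus strand, that of Ly6c2 chr15:75111972-75112221 on the minus strand, that of Ly6c1 chr15:75048838-75049087 on the minus strand and that of Mrc1 chr2:14229164-14229413 on the plus strand. Capitals mark GAGGAA on either strand (TTCCTC where it lies on the other), a purine-rich run typical of the sites of PU.1, the factor encoded by Spi1 that specifies myeloid cells.
Ccr2: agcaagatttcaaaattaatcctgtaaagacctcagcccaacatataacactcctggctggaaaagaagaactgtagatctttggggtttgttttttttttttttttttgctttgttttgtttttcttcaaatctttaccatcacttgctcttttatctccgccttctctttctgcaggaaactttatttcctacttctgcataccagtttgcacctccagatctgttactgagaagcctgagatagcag
Ly6c2: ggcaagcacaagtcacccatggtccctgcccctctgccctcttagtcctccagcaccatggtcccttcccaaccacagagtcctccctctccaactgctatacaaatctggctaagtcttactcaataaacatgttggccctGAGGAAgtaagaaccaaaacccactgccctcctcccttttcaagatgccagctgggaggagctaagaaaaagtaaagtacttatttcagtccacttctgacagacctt
Ly6c1: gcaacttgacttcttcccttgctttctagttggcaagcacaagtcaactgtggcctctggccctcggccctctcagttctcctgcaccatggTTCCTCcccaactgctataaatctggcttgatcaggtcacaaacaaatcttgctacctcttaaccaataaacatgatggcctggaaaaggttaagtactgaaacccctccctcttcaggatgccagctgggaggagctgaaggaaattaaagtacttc
Mrc1: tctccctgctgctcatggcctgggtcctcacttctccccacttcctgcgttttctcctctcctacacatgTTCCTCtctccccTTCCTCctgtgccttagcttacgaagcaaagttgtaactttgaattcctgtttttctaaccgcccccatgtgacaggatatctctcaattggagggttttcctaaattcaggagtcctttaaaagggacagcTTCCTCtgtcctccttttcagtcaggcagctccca
The run occurred 1 time in this window of Ly6c2, 1 time in that of Ly6c1 and 3 times in that of Mrc1, and these letters were not in the window of Ccr2. Of the 6 genes, 2 held it in at least 1 annotated window, and 23.3% of all 32851 promoter windows did. A match is a description of the letters and no evidence of binding.

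The 9 genes spanned a wide range of levels in all groups. Cd14, which encodes a co-receptor for lipopolysaccharide, had the highest mean over the 9 libraries at 502 TPM and ranked 282nd among the tested genes. Ly6c2 followed at 265 TPM, Csf1r at 165 TPM, Ccr2 at 119 TPM, Mrc1 at 83.1 TPM, Adgre1 at 37.0 TPM and Cx3cr1 at 14.0 TPM. Ms4a7 at 2.86 TPM and Nr4a3 at 2.30 TPM were the lowest. In the order of levels within a group, most neighbours had ranges that did not overlap. Overlapping neighbours were Csf1r and Ccr2 in the nanocapsule lungs, Ly6c2 and Csf1r, Mrc1 and Ccr2, and Ms4a7 and Nr4a3 in the anti-PD1 lungs, and Nr4a3 and Ms4a7 in the PBS lungs. Mrc1 stood below Ccr2 in the nanocapsule and PBS lungs, while in the anti-PD1 lungs the means of both were close, at 108 TPM for Mrc1 and 103 TPM for Ccr2.

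**Figure D1:**
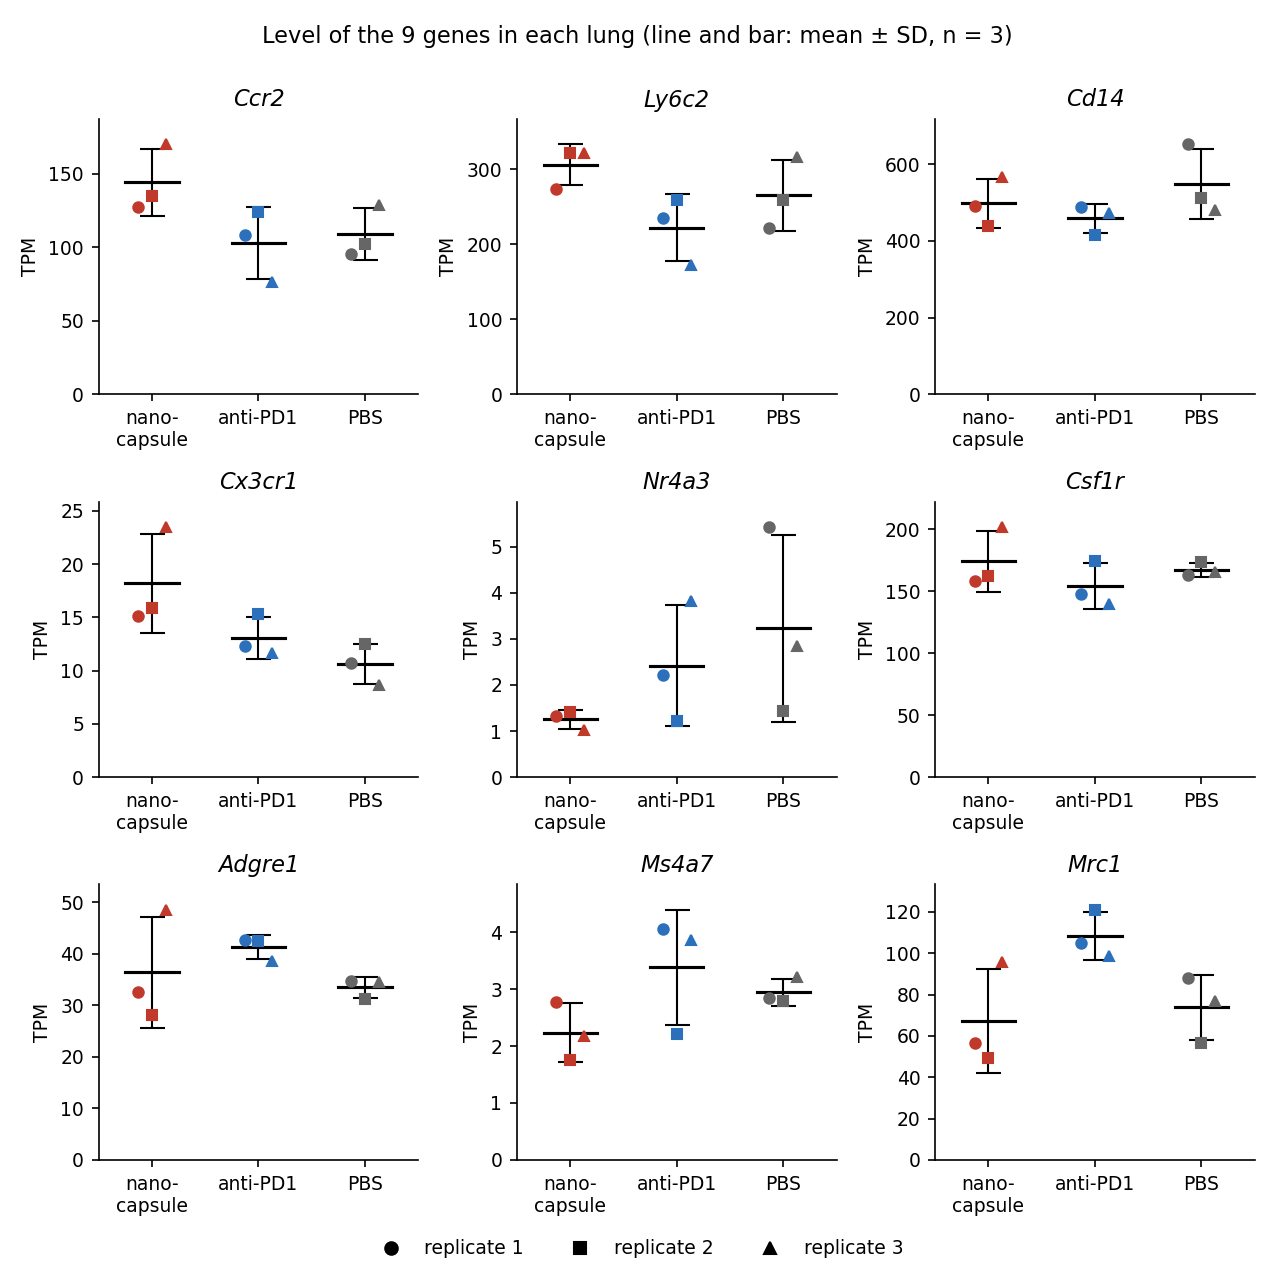
TPM of each of the 9 genes (vertical axes, each from 0) in the 3 nanocapsule, 3 anti-PD1 and 3 PBS lungs; symbols are single lungs, lines and bars the mean ± SD. Ccr2 and Ly6c2 were above all anti-PD1 lungs in every nanocapsule lung, Mrc1 was below them in every nanocapsule lung, and nanocapsule 3 held the highest value of Ccr2, Cx3cr1, Csf1r and Adgre1.

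The labelled tissue carried lung transcripts: Sftpc, the surfactant protein C gene, lay between 343 and 3410 TPM and Scgb1a1, a club cell gene, between 2462 and 9961 TPM. The means of epithelial genes were highest in the anti-PD1 lungs, with wide spread within groups: Sftpc averaged 1651 ± 1530 TPM in the nanocapsule lungs, 2017 ± 1130 in the anti-PD1 group and 723 ± 346 in the PBS lungs, Scgb1a1 4563 ± 2978, 7455 ± 3695 and 4503 ± 2032 TPM, and Ager, a gene of flat alveolar epithelium, 26.5 ± 15.5, 40.8 ± 15 and 20.5 ± 6.00 TPM in the same order (SD, n = 3). Their part in the results was not tested. The 2 neutrophil genes S100a8 and S100a9 took 15.5% to 17.5% of all TPM in the nanocapsule lungs, 10.3% to 12% in the anti-PD1 group and 12.1% to 16.7% in the PBS lungs. Mitochondrial transcripts, led by mt-Co1 and mt-Atp6, took 2.22% to 3.30%, 5.01% to 5.76% and 2.37% to 4.38% of the TPM in the nanocapsule, anti-PD1 and PBS lungs. Because TPM share a fixed sum and keep no depth, the sequencing depth was unknown, and the part that these shares play in the results was not tested beyond the alternative scalings. In bulk lung, fewer cells of a type and less RNA per cell cannot be told apart.

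None of the 9 genes was called by limma at an adjusted p under 0.05 in any comparison, against 0.106% of all tested genes for nanocapsule against anti-PD1, 0.00755% for nanocapsule against PBS and 0.00755% for anti-PD1 against PBS. For nanocapsule against anti-PD1, 4 of the 9 genes had an unadjusted p under 0.05, against 27.7% of all tested genes. These were Ccr2, Ly6c2 and Cx3cr1 on the higher side, where 6.69% of all tested genes were, and Mrc1 on the lower side, where 21.0% were. For nanocapsule against PBS the 1 gene was Cx3cr1, on the higher side, against 10.1% of all tested genes, 1.22% higher and 8.92% lower. For anti-PD1 against PBS the 1 gene was Mrc1, on the higher side, against 16.5% of all tested genes, 8.48% higher and 8.06% lower.

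Some genes had groups of lungs that did not overlap. For nanocapsule against anti-PD1 these were Ccr2 and Ly6c2 above and Mrc1 below, 3 of 9 beside 33.3% of all tested genes (8.73% above, 24.6% below). For nanocapsule against PBS they were Cx3cr1 above and Nr4a3 and Ms4a7 below, 3 of 9 beside 14.3% (2.40% above, 11.9% below). For anti-PD1 against PBS they were Adgre1 and Mrc1 above, 2 of 9 beside 25.5% (12.1% above, 13.4% below). The totals of the first and the last comparison lay near the background. By fitted value alone, 5 of the 9 genes were higher for nanocapsule against anti-PD1, where 29.2% of all tested genes were higher and 70.8% lower, 5 of 9 for nanocapsule against PBS, where 28.8% were higher and 71.2% lower, and 4 of 9 for anti-PD1 against PBS, where 56.9% were higher and 43.1% lower. The median log2 difference of the 9 genes was 0.11, 0.05 and -0.10 for these comparisons in turn, beside -0.17, -0.11 and 0.04 over all tested genes. The first was 0.018 without nanocapsule 3 and 0.28 with median-of-ratios scaling. The second changed sign without nanocapsule 3, at -0.14 with 3 of 9 genes higher. The third changed sign without PBS control 1 (0.092), PBS control 3 (0.025), anti-PD1 3 (0.035) or anti-PD1 2 (0.0075), with 5 of 9 higher in each. The comparisons share groups of lungs, and their values are not independent of each other. The shares of all tested genes given here and above are also the background for the counts of the lists below.

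**Figure D2:**
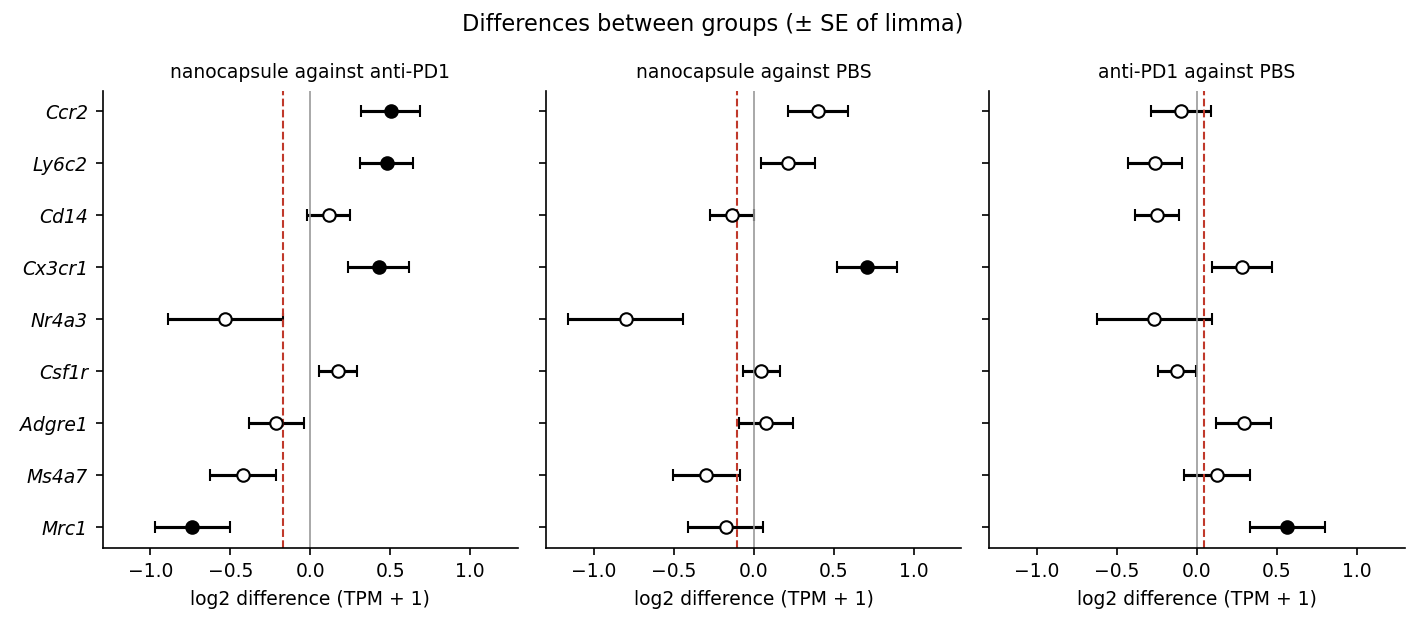
Log2 difference of TPM + 1 (horizontal axes) with the standard error of limma for each gene in the 3 comparisons; filled points have an unadjusted p under 0.05 and the dashed line is the median of all tested genes. For nanocapsule against anti-PD1, Ccr2, Ly6c2, Cx3cr1, Csf1r and Cd14 lay to the right of the median line at -0.17 and Mrc1 lay farthest to the left at -0.74.

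Ccr2 encodes the receptor for CCL2 and related chemokines that brings classical monocytes out of the marrow and into tissue. It lies on chromosome 9 from 124101950 to 124113557 (GRCm38, GENCODE M21, as for all positions here; all 9 are protein coding). Its level was 128, 135 and 170 TPM in the nanocapsule lungs, 108, 124 and 76.1 in the anti-PD1 group and 95.8, 102 and 129 in the PBS lungs. All nanocapsule lungs were above all anti-PD1 lungs, and PBS control 3 reached into the nanocapsule range. The means were 144 ± 22.8, 103 ± 24.4 and 109 ± 17.6 TPM (SD, n = 3). The log2 difference between nanocapsule and anti-PD1 lungs was 0.50 (SE 0.19, limma adjusted p = 0.132), with values of 0.30 (without anti-PD1 3) to 0.65 (without anti-PD1 2) when single libraries were left out. Against PBS it was 0.40 for the nanocapsule lungs (SE 0.19, limma adjusted p = 0.491) and -0.10 for the anti-PD1 lungs (SE 0.19, limma adjusted p = 0.826). The last difference changed sign without anti-PD1 3, at 0.10, and without PBS control 3, at 0.02.

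Ly6c2 encodes a glycosylphosphatidylinositol-anchored surface protein whose antibody stain separates classical from patrolling monocytes in mice. Its position is chromosome 15 from 75108158 to 75111970. The nanocapsule lungs were at 274, 322 and 322 TPM, the anti-PD1 lungs at 235, 259 and 173 TPM and the PBS lungs at 222, 259 and 316 TPM. The pattern resembled that of Ccr2: all nanocapsule lungs were above all anti-PD1 lungs, anti-PD1 3 was the lowest of the 9 libraries for both genes, and PBS control 3 was the highest PBS lung for both. Between nanocapsule and anti-PD1 lungs the log2 difference was 0.48 (SE 0.17, limma adjusted p = 0.119), from 0.31 (without anti-PD1 3) to 0.60 (without anti-PD1 2) with single libraries left out. Against PBS it was 0.22 for the nanocapsule lungs and -0.26 for the anti-PD1 lungs (SE 0.17 in both, limma adjusted p = 0.666 and 0.454), and 0.094 without PBS control 1 and -0.091 without anti-PD1 3.

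Ly6c2 has a close neighbour, Ly6c1, which lung endothelium expresses and which takes part in the common Ly6C stain. Of the distinct stretches of 31 bases in the GENCODE M21 transcripts of Ly6c2, 21.4% also occur in transcripts of Ly6c1, and 33.0% of those of Ly6c1 occur in Ly6c2, so reads from these stretches can be assigned to either gene and the level of each is uncertain. Ly6c1 was at 183 ± 7.70 TPM in the nanocapsule lungs, 173 ± 1.86 in the anti-PD1 group and 156 ± 34.3 in the PBS lungs (SD, n = 3). Its log2 difference between nanocapsule and anti-PD1 lungs was 0.08 (limma adjusted p = 0.712). The ratio of Ly6c2 to Ly6c1 within a lung was 1.57 to 1.75 in the nanocapsule lungs, 1.01 to 1.49 in the anti-PD1 group and 1.62 to 1.83 in the PBS lungs. The anti-PD1 lungs thus had the lowest ratios, below all nanocapsule and all PBS lungs. Ccr1, a receptor gene of the same family as Ccr2, was at 272 ± 43.1, 233 ± 30.4 and 304 ± 50.0 TPM in the nanocapsule, anti-PD1 and PBS lungs (SD, n = 3).

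Other genes of classical monocytes stood beside Ccr2 and Ly6c2. Of 12 such genes, 12 had higher fitted values in the nanocapsule than in the anti-PD1 lungs, with a median log2 difference of 0.21 beside -0.17 over all tested genes, and limma called 0 of them, with 4 at an unadjusted p under 0.05. Against PBS, 8 of 12 were higher with nanocapsules (median 0.13) and 1 of 12 in the anti-PD1 lungs (median -0.16). The 12 of 12 became 8 without anti-PD1 3 and 9 without nanocapsule 3, and its median was 0.11 without nanocapsule 2. The 8 of 12 became 6 without PBS control 1 (median 0.034) and 7 without nanocapsule 3 (median 0.031), and the median was 0.052 without nanocapsule 2, 0.23 without PBS control 3 and 0.24 with median-of-ratios scaling. The 1 of 12 became 6 without anti-PD1 3. Plac8, a gene of monocytes and granulocytes, was at 1000.2 ± 34.7 TPM in the nanocapsule lungs, 727 ± 94.5 in the anti-PD1 group and 862 ± 174 in the PBS lungs (SD, n = 3). Its level was above all anti-PD1 lungs in every nanocapsule lung. Neutrophil markers differed the same way: of 14, 14 were higher in the nanocapsule than in the anti-PD1 lungs (median 0.81). Elane and Cd177, 2 of them, were called (limma adjusted p = 0.0393 and 0.0448). Without anti-PD1 1, anti-PD1 2 or nanocapsule 2, limma called no gene at all in this comparison. The summed TPM of the 14 markers was 171130 to 194690 in the nanocapsule lungs, 112800 to 129700 in the anti-PD1 group and 134270 to 185740 in the PBS lungs, with no marker at 0. Most of each sum was S100a8 and S100a9, whose shares of TPM are given above. The part of the neutrophil markers in the monocyte values was not tested.

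The ligands of CCR2 showed no common direction. Ccl2, the main ligand, was at 36.0 ± 5.59 TPM in the nanocapsule lungs, 27.4 ± 7.14 in the anti-PD1 group and 27.4 ± 5.17 in the PBS lungs (SD, n = 3). Ccl7 was at 5.46 ± 1.02, 7.63 ± 2.59 and 8.04 ± 3.22 TPM and Ccl12, a mouse ligand, at 1.21 ± 0.381, 0.902 ± 0.565 and 2.16 ± 1.26 TPM. The groups overlapped in all 3 ligand genes, and the smallest limma adjusted p among them was 0.227, for Ccl2 between nanocapsule and anti-PD1 lungs.

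Cd14 lies on chromosome 18 from 36725067 to 36726798. It was at 491, 438 and 565 TPM in the nanocapsule lungs, 488, 416 and 473 in the anti-PD1 group and 652, 513 and 480 in the PBS lungs. The groups overlapped in every comparison, and PBS control 1 stood highest. The log2 difference was 0.11 for nanocapsule against anti-PD1, -0.13 for nanocapsule against PBS and -0.25 for anti-PD1 against PBS (SE 0.14 in each, limma adjusted p = 0.593, 0.748 and 0.387). The first was 0.018 without nanocapsule 3 and 0.20 without nanocapsule 2. Leaving out PBS control 1 gave -0.0022 for the second and -0.12 for the third. Unlike Ccr2 and Ly6c2, Cd14 followed immediate early genes across lungs: its r with the mean log2 level of 12 such genes was 0.79 over the 9 libraries, whereas its r with the classical monocyte genes was 0.10. These are descriptions of 9 points that share the scaling of each library.

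Cx3cr1 encodes the receptor for fractalkine that marks patrolling monocytes and part of the interstitial macrophages. The gene spans chromosome 9 from 119901616 to 120069879. Its level was 15.2, 15.9 and 23.5 TPM in the nanocapsule lungs, 12.3, 15.3 and 11.7 in the anti-PD1 group and 10.8, 12.5 and 8.69 in the PBS lungs. All nanocapsule lungs were above all PBS lungs, and anti-PD1 2 reached into the nanocapsule range. The mean of the nanocapsule lungs, 18.2 ± 4.61 TPM, was 1.71 times that of the PBS lungs, 10.6 ± 1.89 TPM (SD, n = 3), a log2 difference of 0.71 (SE 0.19) with an unadjusted p = 0.00379 and a limma adjusted p = 0.363. Single libraries left out gave 0.52 (without nanocapsule 3) to 0.82 (without PBS control 2). Against the anti-PD1 lungs the difference was 0.43 (SE 0.19, limma adjusted p = 0.176), and 0.24 without nanocapsule 3. Between anti-PD1 and PBS lungs it was 0.28 (SE 0.19, limma adjusted p = 0.478), and 0.16 without PBS control 3.

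Cx3cl1, the gene of the membrane-bound ligand of CX3CR1, which epithelium and endothelium make, had another order. It was at 2.44 ± 0.848 TPM in the nanocapsule lungs, 3.92 ± 0.462 in the anti-PD1 group and 2.30 ± 0.553 in the PBS lungs (SD, n = 3), and all anti-PD1 lungs lay above the 6 others, with no call by limma (adjusted p = 0.141 for nanocapsule against anti-PD1 and 0.235 for anti-PD1 against PBS). Markers of natural killer cells, which also use Cx3cr1, ran mostly against Cx3cr1 in the nanocapsule comparisons. Of 8 tested genes, 0 were higher in the nanocapsule than in the anti-PD1 lungs (median -0.58) and 1 of 8 than in the PBS lungs (median -0.27). The count against PBS was 3 without nanocapsule 3 (median -0.15) and with median-of-ratios scaling (median -0.18), and the median was -0.14 without PBS control 3. For anti-PD1 against PBS the markers went the same way as Cx3cr1, with 7 of 8 higher (median 0.26), or 5 without PBS control 1 (median 0.18). Their summed TPM was 121 to 221 in the nanocapsule lungs, 180 to 252 in the anti-PD1 group and 138 to 174 in the PBS lungs, and the listed Klra8 was at 0 in all libraries and was not tested. The most abundant, Gzma, a granzyme gene, was at 109 ± 46.8, 151 ± 32.9 and 100.2 ± 11.5 TPM, and Ncr1, the gene of an activating receptor, at 12.1 ± 1.41, 19.5 ± 2.66 and 13.9 ± 2.22 TPM.

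Of 12 other genes associated with patrolling monocytes, 5 were higher in the nanocapsule than in the anti-PD1 lungs (median -0.22), 7 were higher in the nanocapsule than in the PBS lungs (median 0.16), and 7 were higher in the anti-PD1 than in the PBS lungs (median 0.20), with none called by limma and 5, 0 and 5 at an unadjusted p under 0.05 in this order. The first median was -0.059 with median-of-ratios scaling and -0.085 without nanocapsule 2, and its count was 2 without anti-PD1 1 or nanocapsule 3. The second median was 0.061 without PBS control 3, 0.10 without nanocapsule 3 and 0.27 with median-of-ratios scaling, and the third was 0.042 without anti-PD1 2, 0.12 without anti-PD1 3 and 0.34 without anti-PD1 1. Some of these genes, such as Ace and Cd36, both named as examples outside the naming rule given below, are expressed by lung endothelium as well. Of the 5 at an unadjusted p under 0.05 for anti-PD1 against PBS, 4 were higher and 1 lower. The 13 endothelial markers were higher in the anti-PD1 than in the PBS lungs in 13 of 13 (median 1.17) and than in the nanocapsule lungs in 12 of 13. The endothelial sum was 234 to 282 TPM in the nanocapsule lungs, 324 to 466 in the anti-PD1 group and 192 to 317 in the PBS lungs, led by Ly6c1 and Pecam1, a junction gene at 16.9 ± 4.60, 35.2 ± 8.39 and 24.0 ± 5.60 TPM. Ly6c1, whose level is uncertain, averaged 183, 173 and 156 TPM beside mean sums of 259, 381 and 245 TPM in this order. It was thus most of the sum in the nanocapsule and PBS lungs. Unlike 12 of the 13 markers, Ly6c1 was higher by value in the nanocapsule than in the anti-PD1 lungs (log2 difference 0.08). No endothelial marker was at 0, and their part was not tested. Itgal, an integrin gene of leukocytes, was at 238 ± 24.2, 228 ± 23.9 and 251 ± 14.1 TPM in the nanocapsule, anti-PD1 and PBS lungs.

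Nr4a3 encodes an orphan nuclear receptor of the NR4A family, transcription factors induced rapidly by many stimuli, of which Nr4a1 is required for patrolling monocytes in mice. The gene spans chromosome 4 from 48045153 to 48086447. Nr4a3 was at 1.33, 1.41 and 1.02 TPM in the nanocapsule lungs, 2.21, 1.23 and 3.82 in the anti-PD1 group and 5.43, 1.43 and 2.84 in the PBS lungs. All nanocapsule lungs were below all PBS lungs, although PBS control 2 and nanocapsule 2 differed little. The log2 difference was -0.80 for nanocapsule against PBS (SE 0.36, limma adjusted p = 0.491), from -1.14 when PBS control 2 was left out to -0.44 when PBS control 1 was. It was -0.53 for nanocapsule against anti-PD1 (SE 0.36, limma adjusted p = 0.339), and -0.81 without anti-PD1 2 and -0.25 without anti-PD1 3. Between anti-PD1 and PBS lungs it was -0.27 (SE 0.36, limma adjusted p = 0.749) and changed sign without PBS control 1, at 0.09, or without anti-PD1 2, at 0.01. Its within-group coefficient of variation, 60.8%, was above that of 95.3% of the tested genes.

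The other family members were expressed at very different levels. Nr4a1 was at 220 ± 45.0 TPM in the nanocapsule lungs, 257 ± 37.7 in the anti-PD1 group and 270 ± 88.2 in the PBS lungs, and Nr4a2 at 1.43 ± 0.603, 1.94 ± 0.621 and 2.08 ± 0.742 TPM (SD, n = 3). Both overlapped in every comparison (smallest limma adjusted p = 0.466). PBS control 1, the highest library for Nr4a3 and Cd14, was also the highest for Nr4a1, at 370 TPM, and Nr4a2, at 2.85 TPM. Of a list of 12 immediate early genes that holds the whole family, Nr4a3 itself included, 1 was higher in the nanocapsule than in the PBS lungs (median -0.28) and 0 in the anti-PD1 than in the PBS lungs (median -0.15), none called by limma, with 3 and 1 at an unadjusted p under 0.05. The first median was -0.15 without PBS control 1, against -0.44 when PBS control 3 was left out, and the 0 became 3 without anti-PD1 2 or PBS control 1. For nanocapsule against anti-PD1 the count was 5 of 12, or 7 of 12 with median-of-ratios scaling. The groups overlapped in the 2 most abundant: Junb was at 3038 ± 247, 2795 ± 413 and 3345 ± 339 TPM and Dusp1, a phosphatase gene, at 2588 ± 449, 2528 ± 339 and 2561 ± 306 TPM.

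Csf1r encodes the tyrosine kinase receptor for colony-stimulating factor 1 and interleukin 34 a central receptor of the monocyte and macrophage lineage. It lies on chromosome 18 from 61100598 to 61132149. It was the steadiest of the 9 genes, at 158, 162 and 202 TPM in the nanocapsule lungs, 148, 175 and 140 in the anti-PD1 group and 163, 174 and 165 in the PBS lungs. The groups overlapped in every comparison, and its within-group coefficient of variation was 10.8%, beneath the 13.6% of Cd14. The log2 difference was 0.17 for nanocapsule against anti-PD1, 0.05 for nanocapsule against PBS and -0.12 for anti-PD1 against PBS (SE 0.12 in each, limma adjusted p = 0.339, 0.904 and 0.619). Without nanocapsule 3 the first was 0.06 and the second changed sign, at -0.06, and the third was -0.22 without anti-PD1 2 and -0.058 without anti-PD1 3.

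Of the ligands of this receptor, Csf1 was lower by value in both antibody groups. It was at 57.3, 55.0 and 69.5 TPM in the nanocapsule lungs, 59.6, 68.0 and 59.2 in the anti-PD1 group and 74.2, 103 and 72.7 in the PBS lungs. All 6 antibody-treated lungs lay below all PBS lungs, with log2 differences from PBS of -0.44 for the nanocapsule and -0.40 for the anti-PD1 lungs (limma adjusted p = 0.397 and 0.240), which share the PBS lungs. Il34 was at 1.63 ± 0.481, 3.07 ± 1.69 and 2.24 ± 1.17 TPM (SD, n = 3). Spi1, the gene of PU.1, which neutrophils express too, was at 864 ± 61.6, 699 ± 91.4 and 826 ± 64.7 TPM. Irf8, a factor of monocyte and dendritic cell development, was at 53.9 ± 6.12, 72.2 ± 5.50 and 69.8 ± 15.2 TPM, with all nanocapsule lungs below all anti-PD1 lungs (limma adjusted p = 0.133). Klf4, a factor of monocyte maturation, was at 47.7 ± 10.4, 57.7 ± 1.81 and 60.0 ± 8.10 TPM. Of 10 ligand and factor genes of this lineage, none was called by limma, and 4, 3 and 3 had an unadjusted p under 0.05 for nanocapsule against anti-PD1, nanocapsule against PBS and anti-PD1 against PBS. Among the other paralogs considered, Csf3r, the granulocyte colony-stimulating factor receptor gene of neutrophils, was at 1671 ± 226, 1308 ± 161 and 1743 ± 252 TPM.

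Mrc1 encodes the mannose receptor CD206, an endocytic lectin of interstitial and alveolar macrophages and of lymphatic endothelium. It lies on chromosome 2 from 14229392 to 14332057. Its level was 56.4, 49.1 and 95.7 TPM in the nanocapsule lungs, 105, 121 and 98.7 in the anti-PD1 group and 87.8, 56.6 and 77.0 in the PBS lungs. All anti-PD1 lungs were above the 6 others, with nanocapsule 3 close below them, and PBS control 2 was level with nanocapsule 1. The log2 difference was -0.74 for nanocapsule against anti-PD1 (SE 0.23, unadjusted p = 0.0103, limma adjusted p = 0.102) and 0.56 for anti-PD1 against PBS (SE 0.23, unadjusted p = 0.0367, limma adjusted p = 0.275). Single libraries left out gave -1.02 (without nanocapsule 3) to -0.55 (without nanocapsule 2) for the first and 0.39 (without PBS control 2) to 0.70 (without PBS control 1) for the second. Between nanocapsule and PBS lungs it was -0.17 (SE 0.23, limma adjusted p = 0.811), which was -0.46 without nanocapsule 3 and 0.02 without nanocapsule 2. Mrc2, a related endocytic receptor gene of fibroblasts, was at 0.795 ± 0.0892, 1.47 ± 0.188 and 0.931 ± 0.285 TPM (SD, n = 3).

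Adgre1 encodes the adhesion receptor recognized by the F4/80 antibody, a general marker of mouse macrophages that eosinophils also carry. Its position is chromosome 17 from 57358691 to 57483527. It was at 32.5, 28.1 and 48.5 TPM in the nanocapsule lungs, 42.6, 42.5 and 38.5 in the anti-PD1 group and 34.8, 31.2 and 34.5 in the PBS lungs. All anti-PD1 lungs were above all PBS lungs, and the nanocapsule lungs held both the lowest and the highest value. The log2 difference was 0.29 for anti-PD1 against PBS, -0.21 for nanocapsule against anti-PD1 and 0.08 for nanocapsule against PBS (SE 0.17 in each, limma adjusted p = 0.413, 0.418 and 0.889). Without nanocapsule 3 the second was -0.43 and the third -0.14, and without nanocapsule 2 the second was -0.05. Adgre1 and Mrc1 ran together: their r over the 9 libraries was 0.87, and 0.92 after the group means were removed.

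Alveolar macrophage genes had the same order of groups as Mrc1 against the anti-PD1 lungs. Of 12 tested, 0 were higher in the nanocapsule than in the anti-PD1 lungs (median -0.69) and 12 were higher in the anti-PD1 than in the PBS lungs (median 0.55), none called by limma, with 8 and 5 at an unadjusted p under 0.05. Both counts held under both other scalings and without any single library, while the second median was 0.30 without PBS control 2. Their summed TPM was 1711 to 2793 in the nanocapsule lungs, 3112 to 3704 in the anti-PD1 group and 1891 to 3029 in the PBS lungs, and no marker was at 0. Chil3, a chitinase-like protein gene, was at 727 ± 178, 1036 ± 322 and 860 ± 229 TPM and Ear2, a ribonuclease gene, at 660 ± 176, 1149 ± 80.1 and 704 ± 148 TPM (SD, n = 3). The r of Mrc1 with the mean log2 level of these 12 genes was 0.98 over the 9 libraries and that of Adgre1 was 0.81. Mrc1 also had an r of 0.84 with dendritic cell, 0.67 with lung endothelium and 0.61 with patrolling monocyte genes. Its r was 0.44 with natural killer cell and 0.32 with immediate early genes, and -0.76 with neutrophil genes. With 16 interstitial macrophage genes it was 0.21 and with 12 classical monocyte genes -0.21. Adgre1 had an r of 0.64 with dendritic cell and 0.62 with patrolling monocyte genes. As points the libraries share their scaling and their groups, and the part of alveolar macrophages in the Mrc1 values was not tested.

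**Figure D3:**
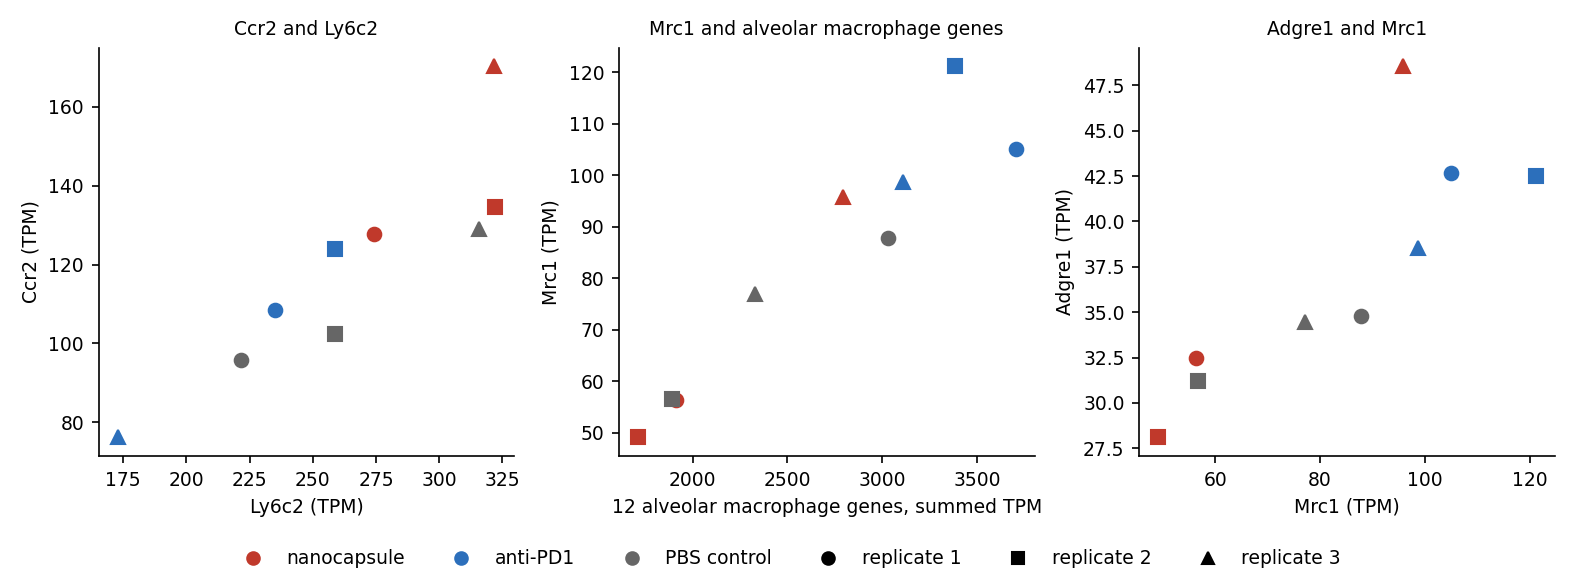
Each point is 1 lung (colour: group, symbol: replicate number). The panels plot Ccr2 against Ly6c2, Mrc1 against the summed TPM of 12 alveolar macrophage genes, and Adgre1 against Mrc1, all in TPM; in the second panel the 3 anti-PD1 lungs lie at the upper right, at sums of 3112 to 3704 TPM, and nanocapsule 3, at 2793 TPM, is next to them.

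Ms4a7, a tetraspan membrane protein gene of monocyte-derived and interstitial macrophages, lies on chromosome 19 from 11321039 to 11336146. It was at 2.78, 1.75 and 2.18 TPM in the nanocapsule lungs, 4.06, 2.22 and 3.87 in the anti-PD1 group and 2.84, 2.79 and 3.22 in the PBS lungs. All nanocapsule lungs were below all PBS lungs, by little in the case of nanocapsule 1 and PBS control 2, and anti-PD1 2 lay among the nanocapsule lungs. The log2 difference was -0.42 for nanocapsule against anti-PD1, -0.30 for nanocapsule against PBS and 0.12 for anti-PD1 against PBS (SE 0.21 in each, limma adjusted p = 0.213, 0.632 and 0.803). The first was -0.63 without anti-PD1 2 and -0.30 without anti-PD1 1, the second -0.19 without nanocapsule 2, and the last 0.33 without anti-PD1 2 and 0.01 without anti-PD1 1.

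Other interstitial macrophage genes were mostly lower by value in the nanocapsule than in the PBS lungs, as were 71.2% of all tested genes. Of 16 such genes, 2 were higher in the nanocapsule than in the PBS lungs (median -0.43, beside -0.11 over all tested genes), 4 were higher in the nanocapsule than in the anti-PD1 lungs (median -0.27), and 7 were higher in the anti-PD1 than in the PBS lungs (median -0.08), none called by limma. In this order, 2, 5 and 3 had an unadjusted p under 0.05, beside 10.1%, 27.7% and 16.5% of all tested genes. The first median was -0.28 without PBS control 1. The second count was 6 with median-of-ratios scaling and 9 without anti-PD1 1 (median 0.02), and the third was 10 without anti-PD1 2 (median 0.15). Apoe, the apolipoprotein E gene, was at 775 ± 77.9 TPM in the nanocapsule lungs, 953 ± 216 in the anti-PD1 group and 854 ± 112 in the PBS lungs, and Cd63, a lysosomal tetraspanin gene, at 142 ± 18.8, 145 ± 15.5 and 126 ± 17.0 TPM (SD, n = 3). The complement genes C1qa, C1qb and C1qc, named after their values were seen because they define these cells, were present: C1qa was at 27.9 ± 3.97, 40.9 ± 23.3 and 43.8 ± 9.15 TPM. Folr2, a folate receptor gene of perivascular macrophages also named afterwards, was at 1.73 ± 0.498, 1.54 ± 0.461 and 2.95 ± 0.375 TPM, below all PBS lungs in all 6 antibody-treated lungs. In its own gene family, Ms4a6c, at 125 ± 20.2, 95.2 ± 23.8 and 102 ± 8.03 TPM, ran with Ccr2 instead. Dendritic cell genes stood at a summed 47.6 to 70.0 TPM in the nanocapsule lungs, 73.0 to 99.5 in the anti-PD1 group and 70.5 to 107 in the PBS lungs, led by Ccr7 and Clec10a and with Xcr1 under 1 TPM throughout. Most of each sum was Ccr7, at means of 39.0, 56.5 and 58.7 TPM beside mean sums of 60.2, 87.3 and 84.9 TPM in the same order.

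Ratios of 2 genes within a lung do not depend on how the libraries are scaled. The pairs were picked with the values in view, so they are descriptions with no test. Ccr2 over Mrc1 was 2.26, 2.74 and 1.78 in the nanocapsule lungs, 1.03, 1.02 and 0.771 in the anti-PD1 group and 1.09, 1.81 and 1.67 in the PBS lungs. All anti-PD1 lungs were below the 6 others, and PBS control 2 overlapped the nanocapsule lungs. Ly6c2 over Mrc1 ran alike, at 3.36 to 6.56 in the nanocapsule lungs, 1.75 to 2.24 in the anti-PD1 group and 2.52 to 4.57 in the PBS lungs. Cx3cr1 over Mrc1 was 0.245 to 0.324 in the nanocapsule lungs, above 0.117 to 0.127 in the anti-PD1 group and 0.113 to 0.220 in the PBS lungs, with no overlap with either. Relative to Csf1r, which most cells of this lineage share, Ccr2 was 0.809 to 0.843 in the nanocapsule lungs, 0.545 to 0.734 in the anti-PD1 group and 0.588 to 0.781 in the PBS lungs. Cx3cr1 over Csf1r was 0.0961 to 0.116 in the nanocapsule lungs, 0.0831 to 0.0879 in the anti-PD1 group and 0.0526 to 0.0718 in the PBS lungs, so the 3 groups did not overlap. Mrc1 over Csf1r was 0.303 to 0.474, 0.694 to 0.712 and 0.326 to 0.540 in the same groups. The ratio of Mrc1 to Marco, a scavenger receptor gene of alveolar macrophages named for this ratio after the values were seen, was 11.2 to 13 in the nanocapsule lungs, 11.5 to 12.2 in the anti-PD1 group and 7.45 to 17.2 in the PBS lungs, and overlapped in all groups.

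**Figure D4:**
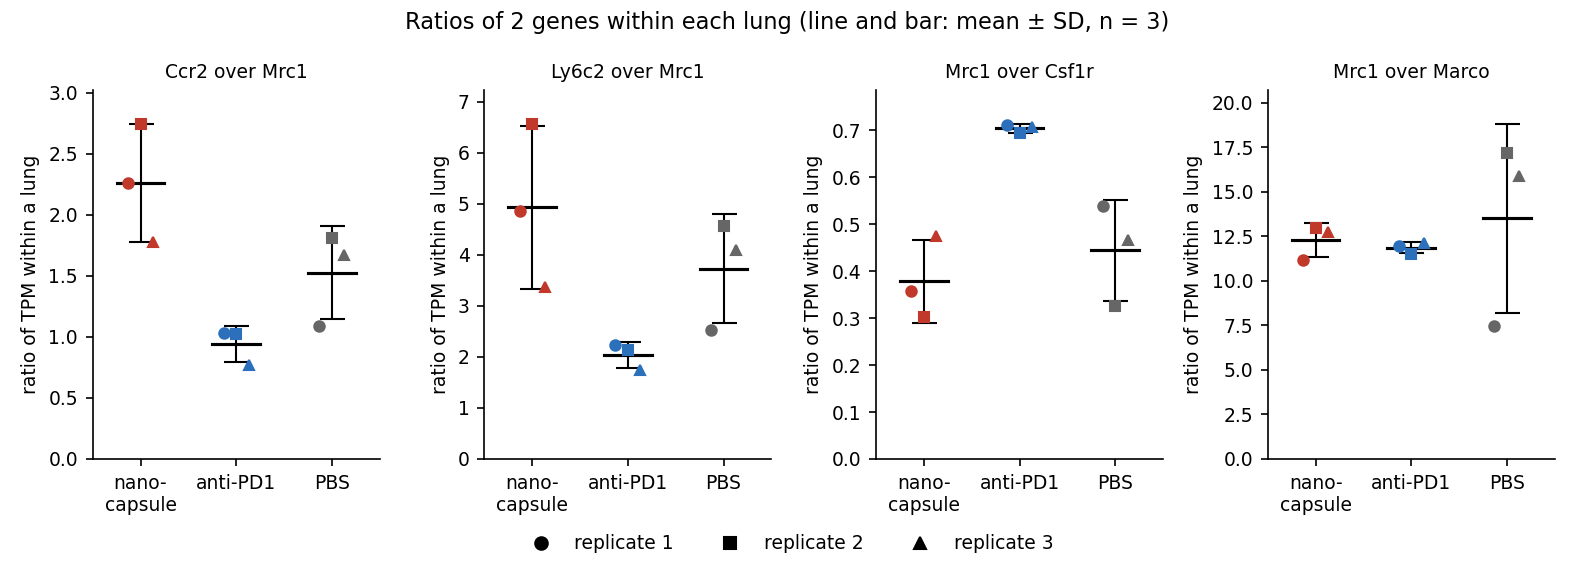
Ratio of the TPM of 2 genes within each lung (vertical axes, each from 0) for Ccr2 over Mrc1, Ly6c2 over Mrc1, Mrc1 over Csf1r and Mrc1 over Marco; symbols are single lungs, lines and bars the mean ± SD. In the first 2 panels the anti-PD1 lungs are lowest, at 0.771 to 1.03 and 1.75 to 2.24, in the third they are highest, at 0.694 to 0.712, and in the last the groups overlap.

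Across the 9 lungs the genes did not move as a single block. The highest r among the 36 pairs was 0.92, between Ccr2 and Ly6c2, which also had 0.92 after the group means were removed, followed by 0.87 between Adgre1 and Mrc1. Csf1r had r of 0.76 with Ccr2, 0.68 with Ly6c2 and 0.61 with Cx3cr1, and near 0 with Mrc1. After the group means were removed, the r with Mrc1 was 0.64 for Csf1r, 0.52 for Ccr2, 0.51 for Cx3cr1 and 0.17 for Ly6c2. Nr4a3 and Ms4a7 had negative r with Ccr2, Ly6c2, Cx3cr1 and Csf1r, between -0.73 and -0.56. With the group means removed, Csf1r and Cx3cr1 had an r of 0.89, and nanocapsule 3 was the highest library for both. Every r here is over 9 libraries that share groups and scaling, and is given as a description.

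**Figure D5:**
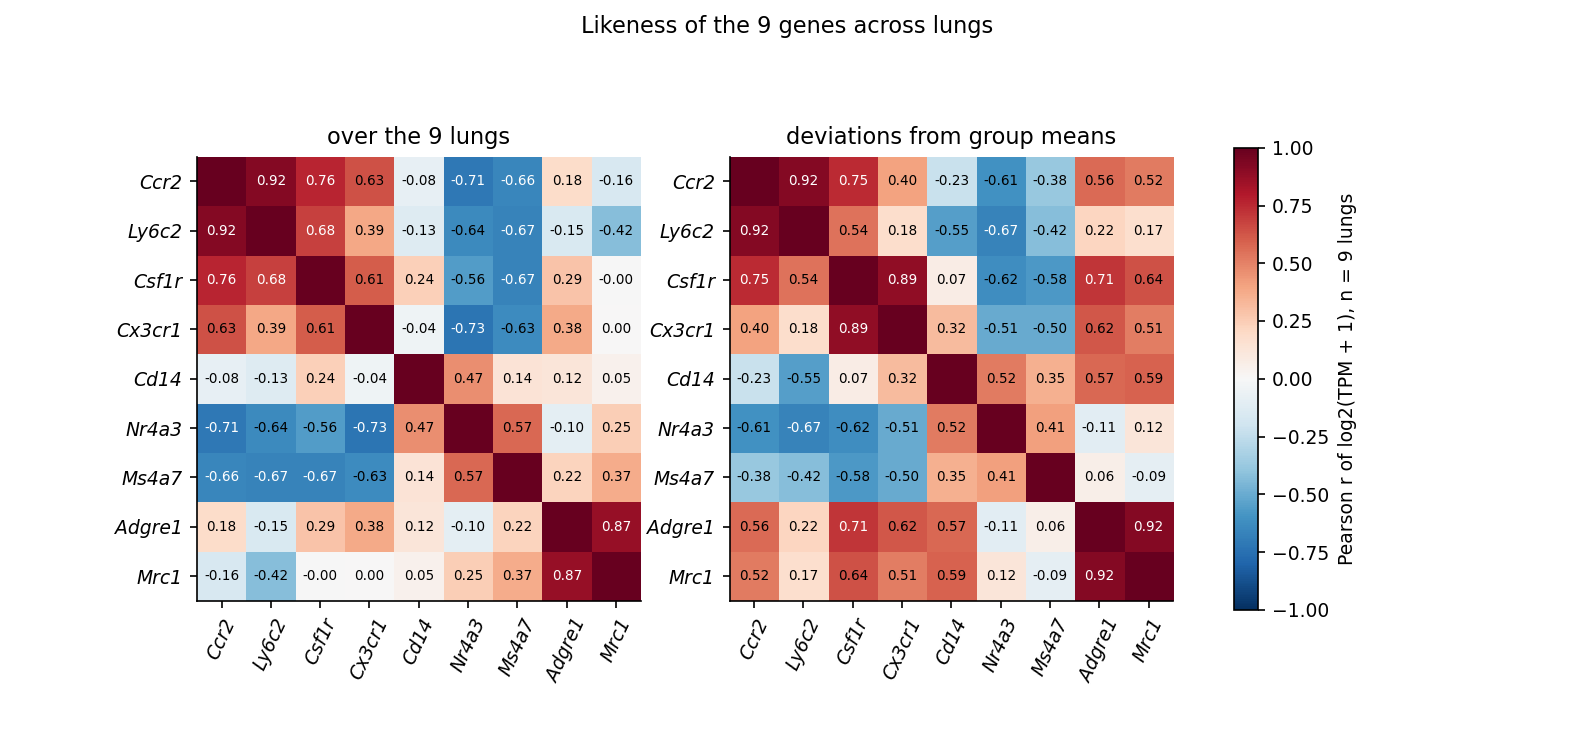
Pearson r of log2(TPM + 1) between the 9 genes over the 9 lungs (left) and after subtraction of the group means (right); colour and printed value both give r, from -1 (blue) to 1 (red). Ccr2 with Ly6c2 (0.92 in both panels) and Adgre1 with Mrc1 (0.87 and 0.92) stand out.

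The tested genes with the pattern most like each of the 9 were ranked by Pearson r over the same libraries. Nearest to Ccr2 were Ms4a6c, another monocyte gene (0.95), and Irf5, an interferon regulatory factor gene of myeloid cells (0.93), and nearest to Ly6c2 were Dhx58 (0.94) and Hoxb4 (0.92). Cx3cr1 was nearest to Dna2 (0.94) and Fam96a (0.92), and Csf1r to Tmem38b and Rnf13 (0.96 each). For Mrc1 the nearest were Il18, a cytokine gene (0.996), and Lilra5, a leukocyte receptor gene (0.995), and for Adgre1 they were Elmo2 (0.99) and Trio (0.98). Cd14 was nearest to Egr3, an immediate early gene (0.96), and Frs2 (0.95), Nr4a3 to Incenp (0.95) and Pex26 (0.95), and Ms4a7 to Zfp12 and Gramd3 (0.97 each). Il18 had means of 71.7, 113 and 78.2 TPM in the nanocapsule, anti-PD1 and PBS lungs. With 13248 genes ranked over 9 libraries, nothing on shared function follows from these values.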

How the data were processed

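RNA was purified with poly-T beads from lung RNA and converted to cDNA with random hexamers, per the labels' protocols. The values are the TPM that the authors deposited for each gene and library, scaled by them to the same sum. Salmon is named in the title of that table and GRCm38 in the submitters' processing notes, without a version of the program. Differences were fitted with limma 3.58.1 (R 4.3.3) on log2(TPM + 1) over all 13248 tested genes with an intensity trend, leaving 6 residual degrees of freedom. All tests were two-sided, with Benjamini-Hochberg adjustment over all tested genes. Fold changes on this scale understate changes of genes with low TPM. An exact permutation test of 3 lungs against 3 cannot give a two-sided p below 0.1 and was not used. On simulated data for nanocapsule against PBS, 78% of 2-fold and 97% of 4-fold changes were recovered by limma among 13248 genes. These rates describe the simulated data alone. Whether they hold for the measured lungs, or for the genes described here, was not tested. They do not show that a 2-fold change of such a gene would have been called.

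The members and lists were chosen with earlier results of these data known. The naming rule took the 9 genes, their ligands, factors and paralogs with a mean of at least 1 TPM, Nr4a1 and Nr4a2, the 2 most abundant genes of each other list, list genes that limma called, and the 2 genes most like each of the 9. Genes named outside it are marked, except the epithelial genes and listed genes that were absent or under 1 TPM. A few genes that the rule takes are not reported here. A listed alveolar macrophage gene without a row in the table, Siglec5, was not used. Alternatives were another pseudocount (0.1), 2 other filters, 2 scalings, no trend, fits of the compared groups alone, a replicate block and the omission of each library.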

Additional observations from a re-analysis of the deposited data

How the results depend on the processing

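None of the 9 genes was called in any comparison under any of the 17 alternatives: 8 other settings and the omission of each of the 9 libraries. Of 453 recomputed differences of the 9 genes, 446 kept their direction, and 7 changed sign, all when a single library was left out: Ccr2 in anti-PD1 against PBS (-0.25 to 0.10), Nr4a3 in anti-PD1 against PBS (-0.61 to 0.092), and Csf1r (-0.063 to 0.11), Adgre1 (-0.14 to 0.24) and Mrc1 (-0.46 to 0.017) in nanocapsule against PBS. The smallest adjusted p was 0.0648, for Mrc1 in nanocapsule against anti-PD1 without PBS control 2, and the adjusted p of that result reached 0.300 under the others.

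The number of all genes called by limma depended on the settings. For nanocapsule against anti-PD1 it was 14, and it was 5 with a filter above 0 TPM, 197 with a mean of at least 5 TPM, 72 without S100a8, S100a9 and the mitochondrial genes, 2 without a trend and 476 with only the 2 groups compared. It ranged from 0 to 962 with single libraries left out: 0 without anti-PD1 1, anti-PD1 2 or nanocapsule 2, 1 without anti-PD1 3 or nanocapsule 3, 5 if nanocapsule 1 was omitted, 188 if PBS control 3 was and 962 if PBS control 2 was. For nanocapsule against PBS it was 1, and 2 with a pseudocount of 0.1, 3 with a mean of at least 5 TPM, 4 with median-of-ratios scaling, 4 without S100a8, S100a9 and the mitochondrial genes, 2 without a trend, and between 0 and 4 with 1 library omitted, namely 0 if nanocapsule 1, nanocapsule 3 or PBS control 3 was omitted, 4 if PBS control 2 was and 3 if PBS control 1 was. For anti-PD1 against PBS it was 1, and 0 with a pseudocount of 0.1, a filter above 0 TPM, median-of-ratios scaling, the removal of S100a8, S100a9 and the mitochondrial genes, or no trend, and 0 to 3 with single libraries left out, 3 without PBS control 1 or nanocapsule 1 and 1 without anti-PD1 3. The cause of these shifts was not tested. Median-of-ratios scaling moved the median of all genes for nanocapsule against anti-PD1 to -0.03 from -0.17, with no sign change among the 9 genes. Under it, 6 of 12 alveolar macrophage genes were higher in nanocapsule than in PBS lungs, against 1 of 12 before.

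The replicate numbers were not treated as pairs, because they are not stated to mark a shared batch. The deviations of same-numbered libraries had correlations of -0.18 to 0.28, 3 of 9 above 0.1. Of the 9 libraries, 6 correlated best with one of their own number, so whether the numbers mark a shared batch is unknown. With the replicate number as a block, limma called 1095 genes for nanocapsule against anti-PD1, 5 for nanocapsule against PBS and 1 for anti-PD1 against PBS, with 0 of the 9 genes in each. Depth is unknown, so the counting error of the low genes Ms4a7 and Nr4a3 cannot be given. Those 2 genes were not tested where a mean of at least 5 TPM was required.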

Other observations

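Nanocapsule 3 stood apart from the other nanocapsule lungs for macrophage genes. It had the highest value of the 9 libraries for Ccr2, Cx3cr1, Csf1r and Adgre1 and the lowest for Nr4a3, and among the nanocapsule lungs it had the highest Mrc1, at 95.7 TPM beside 56.4 and 49.1 TPM, and the highest alveolar macrophage sum, at 2793 TPM beside 1913 and 1711 TPM. In the anti-PD1 group, anti-PD1 3 had the lowest value of the 9 libraries for Ccr2, Ly6c2 and Csf1r, and the highest endothelial sum, at 466 TPM.

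Ly6a, a neighbouring gene of the Ly6 family that endothelium and lymphocytes express, was at 49.8 ± 18 TPM in the nanocapsule lungs, 99.6 ± 24.9 TPM in the anti-PD1 lungs and 50.0 ± 22.3 TPM in the PBS lungs (SD, n = 3). All anti-PD1 lungs lay above the 6 others (limma adjusted p = 0.114 for nanocapsule against anti-PD1 and 0.224 for anti-PD1 against PBS), an order opposite to that of Ly6c2 in nanocapsule and anti-PD1 lungs.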
